A study of Mus musculus with 6 samples.

Results

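The IL-6 family was described here through 9 genes of the deposited mouse table, chosen by name: the cytokine genes Il6, Il11, Lif and Clcf1, the receptor genes Il6st, Il6ra, Lifr and Osmr, and the feedback gene Socs3. Each was found by its Ensembl identifier, so that 9 of the 56953 genes in the table were followed. The libraries were mRNA sequencing libraries of fibroblasts from mouse embryos (MEFs), cells that make connective tissue and were cultured here in medium with fetal bovine serum. There were 3 WT libraries and 3 libraries labelled GαqKO, and no treatment or time course. The paper's methods describe the second line as lacking both Gαq and Gα11. Both lines came from an outside laboratory and the study used them side by side, so that genotype and other differences between the lines cannot be told apart. Nothing in the labels ties the replicates to separate embryos, and p-values measure the spread between these libraries.

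Cytokines of this family are small secreted proteins that share gp130, the signalling receptor chain encoded by Il6st. IL-6 and IL-11 first bind a chain of their own (IL-6Rα, encoded by Il6ra, and IL-11Rα) and then join gp130 molecules. LIF instead pairs gp130 with LIFR, and oncostatin M pairs it with OSMR. The joined chains activate JAK kinases and the transcription factor STAT3, which in turn induces Socs3, an inhibitor that binds gp130 and shuts the signal down. Fibroblasts are a known source of IL-6, LIF and IL-11 in inflamed and tumour tissue.

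The reads counted on genes lay between 9853000 and 12229175 in the 5 libraries in which they could be recovered. Levels are given as normalized counts, in which a size factor of each library has been divided out of the gene's count. Gnaq, the gene of Gαq, was not lower in the libraries labelled GαqKO (1691 ± 48.5 normalized counts in WT and 1926 ± 36.0 in those libraries, SD, n = 3 each), while Gna11, the gene of Gα11, had 2148 ± 29.0 and 452 ± 28.7. The Gnaq transcript therefore went against the label, and a count over the whole gene says nothing of whether the transcript is complete. The paper reports that GαqKO MEFs lacked Gαq by Western blot and immunofluorescence, which measure protein and not RNA. Every direction below is drawn from the labels. Of 10 fibroblast markers, 5 rose and 5 fell in the libraries labelled GαqKO with an adjusted p under 0.05 (limma). Of all genes tested, 31.8% rose and 34.1% fell by the same measure. Col1a1 was lower, from 15324 to 17402 normalized counts in WT and from 5461 to 5952 in those libraries. Pdgfra and Dcn were at 17.5 to 21.9 and 30.1 to 35.5 normalized counts in WT, against 2274 to 2356 and 1604 to 1710 in the libraries labelled GαqKO, and Thy1, at or under the floor of 3 counts in each WT library, was at least 21.6-fold higher. Thy1 reached the 10 normalized counts needed for testing only in the libraries labelled GαqKO, so that its call is not independent of its direction. The 10 fibroblast markers summed to between 84406 and 90167 in WT and between 62921 and 66196 in the libraries labelled GαqKO. Of the other cell types, the 5 epithelial markers summed to 255 to 285 in WT, mostly from Cdh1, and to 9.06 to 20.8 in the libraries labelled GαqKO. Krt8 and Krt18 had 7.12 to 30.1 and 9.16 to 18.8 in WT and were at or under the floor of 3 counts in the libraries labelled GαqKO. Epcam and Krt5 overlapped between the groups. The 7 immune markers summed to 105 to 120 and 70.4 to 105, with Ptprc at 3.13 or less. Most of this sum was Cd68, at 84.6 to 104 in WT and 54.5 to 79.8 in the libraries labelled GαqKO (adjusted p = 0.0296, limma). The 4 endothelial markers summed to 12.6 to 22.4 and 15.0 to 25.4. The part of these markers in the results below was not tested, and fewer cells of a type and less RNA per cell cannot be told apart in bulk RNA.

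The bases before the start sites of the members whose levels differed most, and of Socs3, are shown because STAT, AP-1 and NF-kB factors are the known regulators of this family. Sequences are from RefSeq promoters that matched GRCm39 exactly, 250 bases ending just before the transcription start, 5′ to 3′, and capitals mark a motif match.
Il11, chr7:4781141-4781390, minus strand: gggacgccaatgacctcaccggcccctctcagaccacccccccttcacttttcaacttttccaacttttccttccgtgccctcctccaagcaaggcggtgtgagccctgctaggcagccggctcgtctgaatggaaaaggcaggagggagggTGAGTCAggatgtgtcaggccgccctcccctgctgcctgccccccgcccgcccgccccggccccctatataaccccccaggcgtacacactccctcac
Il6ra, chr3:89820504-89820753, minus strand: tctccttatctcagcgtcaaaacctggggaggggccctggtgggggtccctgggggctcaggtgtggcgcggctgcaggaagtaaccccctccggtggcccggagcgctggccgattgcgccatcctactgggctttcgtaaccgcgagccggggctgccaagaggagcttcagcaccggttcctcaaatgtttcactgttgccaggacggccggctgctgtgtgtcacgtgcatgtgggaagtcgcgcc
Lifr, chr15:7158803-7159052, plus strand: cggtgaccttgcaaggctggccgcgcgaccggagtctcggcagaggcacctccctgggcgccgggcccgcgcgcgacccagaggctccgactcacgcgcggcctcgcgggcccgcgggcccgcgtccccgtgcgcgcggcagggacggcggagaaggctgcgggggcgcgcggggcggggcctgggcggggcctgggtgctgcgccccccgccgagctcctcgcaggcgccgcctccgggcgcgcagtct
Socs3, chr11:117860193-117860442, minus strand: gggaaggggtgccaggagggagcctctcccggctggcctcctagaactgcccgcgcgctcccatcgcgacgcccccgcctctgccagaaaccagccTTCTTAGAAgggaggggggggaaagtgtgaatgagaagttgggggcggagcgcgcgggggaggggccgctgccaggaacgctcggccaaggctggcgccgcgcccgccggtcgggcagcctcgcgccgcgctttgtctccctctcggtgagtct
The search covered both strands for the STAT motif TTCNNNGAA, the AP-1 motif TGANTCA, the cyclic AMP response element TGACGTCA, the NF-kB motif (GGG and TTTCC with a pair of any bases between) and the TATA box TATAAA, and no matches overlapped each other. Of the 8 members with a promoter in that table, Socs3 held the STAT motif, as TTCTTAGAA from 154 to 146 bases before the start, against 7.02% of 32851 mouse promoters of the same length. The AP-1 motif stood before Il6, Il11 and Lif, which are the 3 cytokine genes searched, and before none of the 4 receptor genes or Socs3, with a background of 6.75% of promoters. In Il11 it lay 98 to 92 bases before the start. Il6 also held the NF-kB motif (1.41% of promoters). No match was found before Il6ra, Lifr, Il6st or Osmr. For each gene only the start nearest the canonical one was searched, which in Osmr lay 656 bases from it. Other starts were not searched. The cyclic AMP response element (1.55%) and the exact letters TATAAA (12.4%) were found before no member. The Il11 sequence above holds the similar letters tatataa near its end, which this search did not count, so a TATA box of another form is not excluded. Clcf1 had no entry in the table. A match is a description of these letters and not evidence of binding.

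Across the family, the levels of Il6ra and Il11 were higher and the level of Lifr was lower in the libraries labelled GαqKO by more than 2-fold, while Lif and Osmr were within the spread between replicates. Of the 9 genes, 8 passed the filter, a minimum of 10 normalized counts in 3 or more libraries, and Il6 did not. Clcf1 passed only through the libraries labelled GαqKO, where it was higher, so that its presence among the genes tested is not independent of its direction. Fold changes are differences of log2(normalized count + 1) between the group means, fitted with limma over all 14096 genes tested. With an adjusted p under 0.05 and a log2 fold change over 1, 2 members were higher, and under -1, 1 was lower, where 10.2% and 10.5% of all genes tested met these thresholds (20.7% in either direction). At an adjusted p under 0.05 with any fold change, 3 members were higher and 2 were lower, against 31.8% and 34.1% of all genes. The 5 members that passed make 62.5% of the 8 tested, close to the 65.8% of all genes tested that passed in either direction. The groups did not overlap for 6 of the 8, against 69.6% of all genes tested. In 4 of these the libraries labelled GαqKO were higher and in 2 lower, against 33.8% and 35.8%. The median log2 fold change was 0.21 over the 8 members and -0.01 over all genes tested. Clcf1 is 1 of the 4 and enters this median, although it passed the filter only through its higher group.

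**Figure D1:**
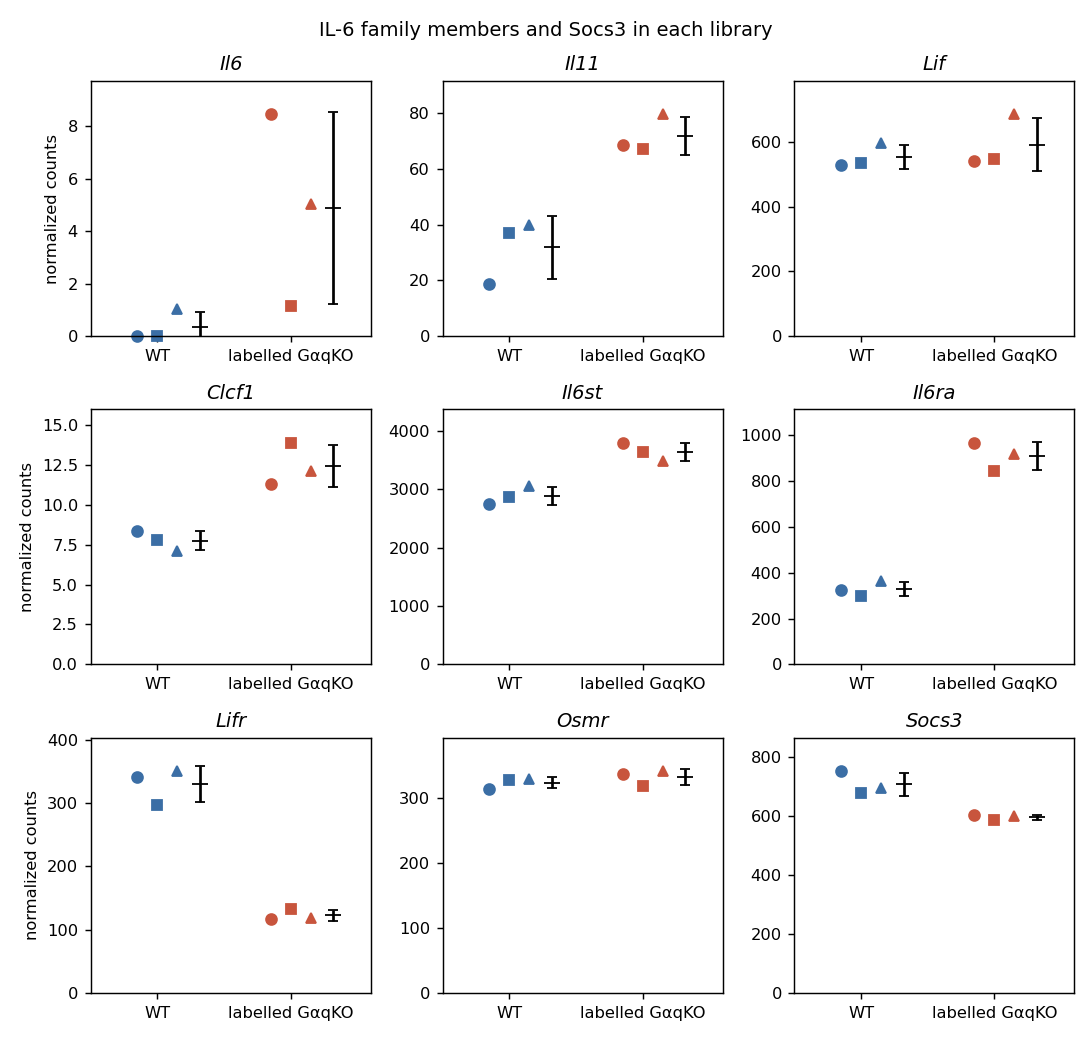
Normalized counts of the 9 genes in each library. Circles, squares and triangles are replicates 1, 2 and 3, bars are the mean ± SD (n = 3), and each axis starts at 0. Il6ra and Lifr separate the groups in opposite directions, Lif and Osmr overlap, and Il6 does not exceed 8.45 normalized counts in any library.

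Il6ra (ENSMUSG00000027947.12; GRCm39 chromosome 3, 89771366 to 89820719, minus strand) encodes the chain that binds IL-6 itself. It had 326, 298 and 362 normalized counts in WT replicates 1, 2 and 3 and 965, 843 and 915 in the libraries labelled GαqKO. Each of the latter was above every WT value, by more than the spread within either group. The means were 329 ± 32.2 and 908 ± 61.6 (SD, n = 3 each), a 2.76-fold higher level, and the log2 fold change was 1.46 (standard error 0.081, adjusted p = 1.92e-09, limma). Among the 14096 genes tested, the named genes with the most similar centred log2 profile over the 6 libraries were Tead4, Rbms3 and Zfp217, at Euclidean distances of 0.134, 0.136 and 0.147.

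Lifr (ENSMUSG00000054263.13; chromosome 15, 7120095 to 7226970, plus strand), the receptor chain for LIF, moved the other way. Its values were 341, 297 and 350.1 normalized counts in WT and 117, 133 and 118 in the libraries labelled GαqKO. All 3 of these were far below the lowest WT value. The means of Lifr were 329.6 ± 28.4 and 123 ± 8.88 (SD, n = 3 each), and the log2 fold change was -1.42 (standard error 0.108, adjusted p = 5.58e-08, limma). The profiles nearest to that of Lifr, by the same measure, were those of Aunip, Rcor2 and Trim2, at distances of 0.142, 0.152 and 0.160.

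Il6st (ENSMUSG00000021756.13; chromosome 13, 112600604 to 112646620, plus strand), which encodes the shared chain gp130, was the most abundant member. It had 2741, 2865 and 3053 normalized counts in WT and 3792, 3626 and 3481 in the libraries labelled GαqKO. The groups did not overlap, but the change was small beside those of Il6ra and Lifr. The mean of Il6st rose from 2886 ± 157 to 3633 ± 155 (SD, n = 3 each), which is 0.33 on the log2 scale (standard error 0.050, adjusted p = 4.82e-05, limma), under the fold threshold. Osmr (ENSMUSG00000022146.13; chromosome 15, 6843053 to 6904450, minus strand), a receptor chain for oncostatin M, had 314, 327 and 329.8 normalized counts in WT and 337, 318 and 341 in the libraries labelled GαqKO. These values interleave. The log2 fold change of Osmr was 0.04 with a 95% interval from -0.13 to 0.20 (adjusted p = 0.697, limma), an interval that leaves out a change as large as that of Il6st.

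**Figure D2:**
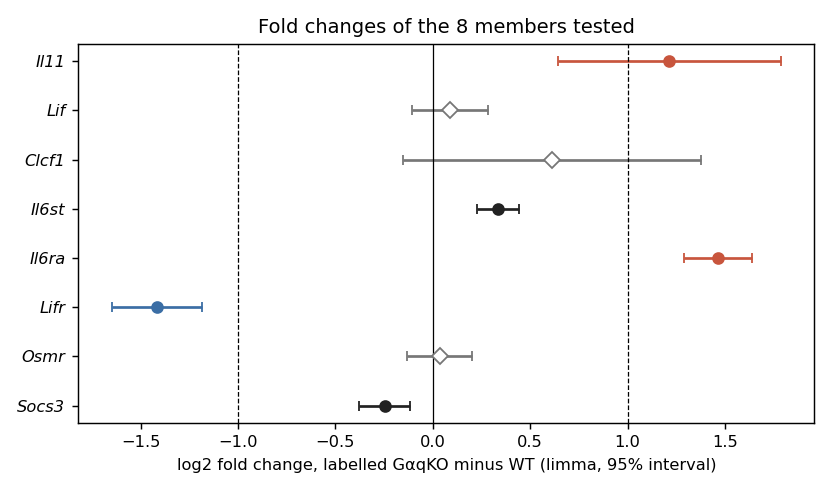
Log2 fold changes of the 8 members tested, libraries labelled GαqKO minus WT, on the log2(normalized count + 1) scale, with 95% intervals from limma. Dashed lines mark log2 fold changes of -1 and 1, open diamonds did not pass an adjusted p under 0.05, and the interval of Il11 reaches from 0.64 to 1.79.

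The makeup of the receptor transcripts differed between the groups. Within a library, the ratio of Il6ra to Lifr counts was 0.954, 1.00 and 1.03 in the WT libraries and 8.22, 6.34 and 7.77 in those labelled GαqKO, a mean of 0.997 ± 0.041 against 7.44 ± 0.984 (SD, n = 3 each). The WT libraries thus held about equal counts of both, and those labelled GαqKO several times more Il6ra. The ratio of Il6st to Il6ra fell from 8.81 ± 0.685 to 4.01 ± 0.259, and that of Il6st to Lifr was 8.79 ± 0.808 in WT and 29.7 ± 2.52 in the libraries labelled GαqKO. These ratios restate changes given above and were not tested.

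To compare genes with each other, normalized counts were divided by the length of the canonical transcript. On this per-kilobase scale the WT receptor levels were 333 ± 18.1 for Il6st, 58.9 ± 1.52 for Osmr, 38.1 ± 3.72 for Il6ra and 33.1 ± 2.85 for Lifr (SD, n = 3 each). With the canonical length, the libraries of Il6ra and Lifr overlapped in WT, so that this pair had no order there. With the length of all annotated exons they did not overlap, and Il6ra was the higher in WT (37.1 ± 3.63 against 23.9 ± 2.06 per kilobase). In the libraries labelled GαqKO the levels per kilobase were 419 ± 17.9 for Il6st, 105 ± 7.13 for Il6ra, 60.4 ± 2.27 for Osmr and 12.3 ± 0.892 for Lifr, and no neighbours in this order overlapped. Il6ra thus stood below Osmr in WT and above it in the libraries labelled GαqKO. With the length of all annotated exons in place of the canonical transcript, Il6ra was above Osmr in WT as well (37.1 ± 3.63 against 26.1 ± 0.672 per kilobase), so this change of order depends on the length used. In the libraries labelled GαqKO, Lifr was the lowest receptor under both lengths, with no overlap.

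**Figure D3:**
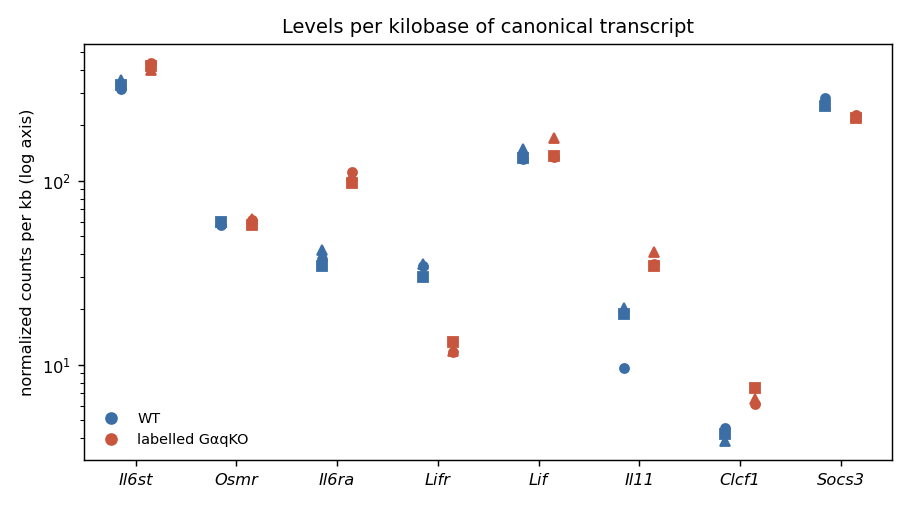
Normalized counts per kilobase of canonical transcript, on a log axis, for 8 genes. Blue symbols are WT libraries and red symbols those labelled GαqKO, with 1 symbol for each library. Il6 is left out because it is listed at 0 in 2 libraries. Il6ra and Lifr lie together in WT and apart in the libraries labelled GαqKO.

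Among the cytokines, Il11 passed both thresholds. Il11 (ENSMUSG00000004371.16; chromosome 7, 4775372 to 4785858, minus strand) encodes a cytokine of fibroblasts that is known from fibrosis. It had 18.8, 36.9 and 39.7 normalized counts in WT and 68.5, 67.1 and 79.6 in the libraries labelled GαqKO. The groups did not overlap, and WT replicate 1 was the lowest by a wide margin. The means of Il11 were 31.8 ± 11.3 and 71.7 ± 6.82 (SD, n = 3 each), a 2.26-fold higher level, and the log2 fold change was 1.21 (standard error 0.266, adjusted p = 0.00116, limma). Without WT replicate 1 the log2 fold change of Il11 was 0.88 (adjusted p = 0.00270, limma), below the fold threshold.

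Lif (ENSMUSG00000034394.15; chromosome 11, 4207557 to 4222514, plus strand) was the most abundant cytokine gene of the family in both groups. It had 530.4, 536 and 597 normalized counts in WT and 541, 548 and 687 in the libraries labelled GαqKO. Only replicate 3 of the latter lay above the WT range. The means of Lif were 555 ± 37.1 and 592 ± 82.3 (SD, n = 3 each), and the log2 fold change was 0.09 with a 95% interval from -0.11 to 0.28 (adjusted p = 0.414, limma). Without that library it was -0.025. The cytokine Lif thus showed no detectable difference while the transcript of its receptor Lifr was lower. Per kilobase, Lif stood at 138 ± 9.23 in WT and 147 ± 20.4 in the libraries labelled GαqKO, and Il11 at 16.3 ± 5.82 and 36.8 ± 3.50 (SD, n = 3 each).

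Il6 and Clcf1 had few counts in either group. Il6 (ENSMUSG00000025746.12; chromosome 5, 30218112 to 30224979, plus strand) was listed at 0, 0 and 1.02 normalized counts in WT and at 8.45, 1.16 and 5.04 in the libraries labelled GαqKO. In reads this was 1 read in all 3 WT libraries together and 9 and 1 in GαqKO replicates 1 and 2, so that the highest WT library and the lowest labelled GαqKO held 1 read each. No fold change is given for so few reads. Clcf1 (ENSMUSG00000040663.10; chromosome 19, 4264292 to 4273546, plus strand), a cytokine that signals through the CNTF receptor with gp130 and LIFR, had 8.35, 7.77 and 7.12 normalized counts in WT and 11.3, 13.9 and 12.1 in the libraries labelled GαqKO. The groups of Clcf1 did not overlap, with a log2 fold change of 0.61 and a 95% interval from -0.15 to 1.38 (adjusted p = 0.144, limma).

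All exon bases of Il6 lie inside the span of Gm42450, a gene on the opposite strand that was listed at 0 in each library, and 96.9% of those of Clcf1 lie inside Gm45928 on the same strand or 1500032F14Rik on the opposite strand. Gm45928 itself had 7.31, 14.6 and 10.2 normalized counts in WT and 5.63, 9.25 and 22.2 in the libraries labelled GαqKO, which overlap, unlike those of Clcf1. In the table, 25.2% of the 11516 protein-coding genes that overlap no other gene were listed at 0 in all 6 libraries. Of the 898 whose exons lie wholly inside genes of the opposite strand, 72.2% were listed at 0, and of the 403 wholly inside genes of the same strand, also 72.2%, while 68.6% of the 306 wholly inside a mixture of genes of both strands were. Of the 8541 partly inside other genes, the class of Clcf1, Socs3, Il6ra and Il6st, 5.8% were listed at 0, fewer than among genes without overlap. Whether position changed the counts of Il6 or Clcf1 was not tested. Of the 106 genes in the lists used here, 6 lie wholly inside other genes, namely Il6, Timp1, Hif1a, Il1a, Il1b and Csf2, and none of the 6 exceeded the 8.45 normalized counts of Il6 in any library. A low or 0 value of Il6 is given only as listed. Among the other members, 22.4% of the exon bases of Socs3, 5.2% of Il6ra and 1.2% of Il6st lie inside genes of the opposite strand, and Il11, Lif, Lifr and Osmr overlap no gene of the table.

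**Figure D4:**
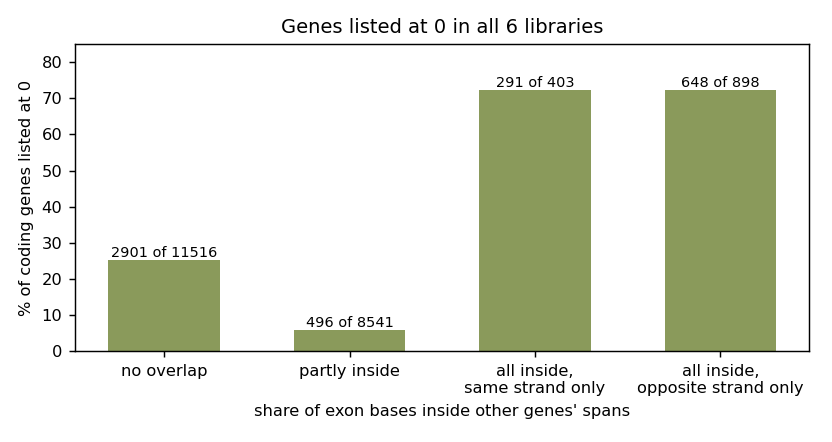
Share of protein-coding genes listed at 0 in all 6 libraries, by how their exons lie relative to the spans of other genes in the table (bars start at 0, counts above them). The 2 classes of nested genes, same strand and opposite strand, stand at 72.2%, against 25.2% without overlap and 5.8% of those partly inside. Il6 belongs to the class wholly inside a gene of the opposite strand.

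Socs3 (ENSMUSG00000053113.4; chromosome 11, 117856905 to 117860898, minus strand), the feedback inhibitor, had 752, 678 and 694 normalized counts in WT and 603, 586 and 599 in the libraries labelled GαqKO. The 3 latter values lay close together and below all WT values. Socs3 fell from 708 ± 38.8 to 596 ± 8.74 (SD, n = 3 each), a change of -0.25 on the log2 scale (standard error 0.061, adjusted p = 0.00287, limma), under the fold threshold. In DESeq2 on the reads of 5 libraries its adjusted p was 0.0555. Per kilobase, Socs3 had 266 ± 14.6 in WT and 224 ± 3.28 in the libraries labelled GαqKO.

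The remaining ligands and receptors of the family were mostly not detected or lower. Of 9 further ligand genes 3 were tested, and 2 of these were lower at an adjusted p under 0.05, with none past the fold threshold. By the same measure 34.1% of all genes tested were lower. Ctf1, the gene of cardiotrophin-1, fell from 155 ± 6.18 to 92.9 ± 11.5 normalized counts, a log2 fold change of -0.74 (adjusted p = 2.84e-04, limma). Ctf2, a close relative of Ctf1, had 33.1 ± 4.93 and 24.9 ± 6.67 and did not pass (SD, n = 3 for each of these genes). Osm, Cntf, Ebi3, Il12a and Il31 were listed at 0 in each library, and Il27 reached 1.16.

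Of 5 further receptor genes, only Il11ra1 was tested, and it was lower past both thresholds, as were 10.5% of all genes tested. Il11ra1, the receptor chain specific to IL-11, had 55.3, 40.8 and 58.0 normalized counts in WT and 21.6, 13.9 and 24.2 in the libraries labelled GαqKO. The groups of Il11ra1 did not overlap. The means were 51.4 ± 9.27 and 19.9 ± 5.36 (SD, n = 3 each), and the log2 fold change was -1.35 (standard error 0.271, adjusted p = 6.02e-04, limma). The ligand Il11 and its receptor transcript thus moved in opposite directions. The near copy Il11ra2 was listed at 0, and reads shared between such copies make the count of Il11ra1 uncertain. Cntfr, the chain that binds CNTF and CLCF1, had 7.31, 16.5 and 29.5 normalized counts in WT and at most 1.16 in the libraries labelled GαqKO, which is at or under the floor of 3 counts per library and at least 5.93-fold lower. Cntfr did not pass the filter and was not tested. Il31ra lay between 1.04 and 6.11 in all libraries.

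In the list of JAK, STAT and adaptor genes, 11 of 11 were tested, of which 2 rose and 8 fell with an adjusted p under 0.05, and 1 was lower past both thresholds. Those passing on adjusted p made 90.9% of the list, against 65.8% of all genes tested. Stat5b, a transcription factor of the same kinase pathway, fell from 773 ± 51.7 to 358 ± 11.0 normalized counts, a log2 fold change of -1.11 (adjusted p = 6.90e-09, limma). Ptpn11, the phosphatase SHP2 that docks on gp130, fell from 5746 ± 71.4 to 4322 ± 44.1, and the adaptor Grb2 from 1798 ± 88.2 to 1266 ± 29.6 (log2 fold changes of -0.41 and -0.51). Named after their values were seen, Stat3 had a log2 fold change of -0.42, Jak2 -0.70 and Jak1 -0.25 (all at an adjusted p under 0.05, limma). The median over the list was -0.42, against -0.01 over all genes tested. In Tyk2, 92.9% of the exon bases lie inside other genes, and it did not pass with 15.3 ± 4.94 and 14.9 ± 3.47 normalized counts (SD, n = 3 for each of these genes).

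Of 8 further feedback and phosphatase genes, 7 were tested, 3 rose and 1 fell with an adjusted p under 0.05, and none passed the fold threshold. The share passing on adjusted p was 57.1% of the 7, against 65.8% of all genes tested. Ptpn1, the phosphatase PTP1B that acts on JAK kinases, rose from 1317 ± 24.1 to 2333 ± 60.3 normalized counts, a log2 fold change of 0.82 (adjusted p = 1.61e-09, limma). The STAT3 inhibitor gene Pias3 rose from 483 ± 66.6 to 756 ± 28.0, whereas its relative Pias1 fell from 702 ± 14.9 to 519.7 ± 11.4, with log2 fold changes of 0.65 and -0.43. Socs1, named after its values were seen, rose from 275 ± 6.51 to 474 ± 23.8, opposite in direction to Socs3, and the ratio of Socs1 to Socs3 was 0.389 ± 0.019 in WT and 0.796 ± 0.050 in the libraries labelled GαqKO (SD, n = 3 each). Of the proteases that release receptor ectodomains, Adam10 fell from 3396 ± 87.5 to 2308 ± 63.0 normalized counts (log2 fold change -0.56, adjusted p = 6.33e-08, limma). Adam17 had a log2 fold change of -0.14 (adjusted p = 0.0414, limma).

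Genes known as STAT3 targets did not move in a single direction. Of 22 such genes 14 were tested, with 6 higher, 5 lower and 3 not passing at an adjusted p under 0.05, and 1 higher and 1 lower past both thresholds. Passing on adjusted p were 78.6% of the 14, against 65.8% of all genes tested. Bcl2l1, which encodes the survival protein BCL-XL, had 927 ± 40.1 normalized counts in WT and 2276 ± 28.6 in the libraries labelled GαqKO (SD, n = 3 each), with 1.30 as its log2 fold change (adjusted p = 3.64e-11, limma). Icam1, an adhesion molecule for leukocytes, had 21.4 ± 6.10 in WT (SD, n = 3) and was at or under the floor of 3 counts in GαqKO replicates 1, 2 and 3, a level at least 7.14-fold lower. Icam1 passed the filter only through the WT libraries, so that its call is not independent of its direction. Mcl1, a relative of Bcl2l1 in function, had the highest mean of this list over both groups, with 4619 ± 177 and 4920.3 ± 92.7 normalized counts, and did not pass (adjusted p = 0.0712, limma). The median log2 fold change of the 14 was 0.09, also with Icam1 at its bound. Timp1, Ccl2, Lrg1 and Hif1a were listed at 0 in each library, of which Timp1 and Hif1a lie wholly inside other genes.

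In the list of inflammatory cytokines and the NF-kB and AP-1 genes around them, 7 of 12 were tested, and 3 rose and 3 fell with an adjusted p under 0.05. This is 85.7% of the 7, against 65.8% of all genes tested. The 3 lower genes also passed the fold threshold, as did 10.5% of all genes tested in that direction. Tnfaip3, which encodes the NF-kB inhibitor A20, fell from 751 ± 26.3 to 171 ± 10.1 normalized counts, a log2 fold change of -2.13 (adjusted p = 2.86e-11, limma). Il33, an alarm cytokine of the IL-1 family, fell from 80.9 ± 3.63 to 26.3 ± 10.3, and Il1rn, the natural antagonist of the IL-1 receptor, from 47.9 ± 10.7 to 20.5 ± 3.19, with log2 fold changes of -1.64 and -1.18 (SD, n = 3 each). Tnf and Il1b, classical inducers of Il6, were listed at 0 in each library, and Il1b lies wholly inside another gene.

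**Figure D5:**
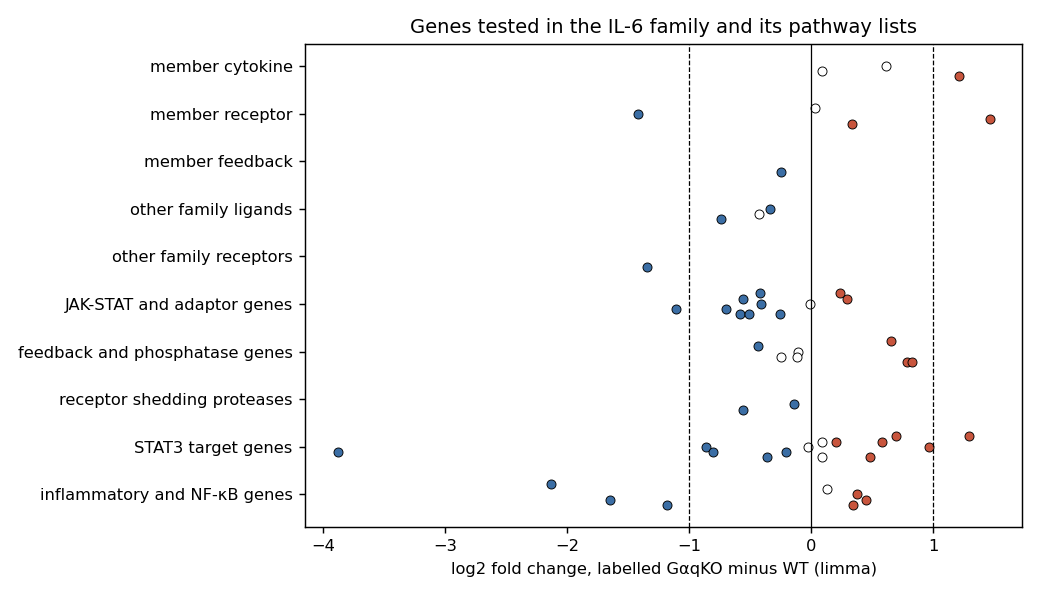
Log2 fold changes, libraries labelled GαqKO minus WT, of the genes tested in the family and in each pathway list, 1 point for each gene. Filled points passed an adjusted p under 0.05 (red higher, blue lower), open points did not, and dashed lines mark -1 and 1. Most JAK, STAT and adaptor genes lie below 0, while the STAT3 targets lie on both sides. The leftmost point is Icam1, whose fitted value depends on the added count of 1.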

How the data were processed

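The data were 6 RNA sequencing libraries of MEFs, 3 WT and 3 labelled GαqKO. Reads were mapped by the authors with Rbowtie2 (GRCm39) and assigned to GENCODE vM32 genes by featureCounts, and they deposited normalized counts, a signal made by dividing gene counts by a size factor of each library with DESeq2. Tool versions and the strand setting are not given in the sources used here. Symbols, lengths and overlaps came from GENCODE vM39 of the same build, which matched 56310 of 56953 identifiers. Start sites and lengths may differ from the release the authors used.

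Because the values are normalized, limma 3.58.1 (R 4.3.3) with a trend in the prior spread was fitted to log2(normalized count + 1) over the 14096 genes that reached 10 normalized counts in 3 or more libraries, and p-values were adjusted by Benjamini-Hochberg over all of them. This scale understates the change of low genes. In 5 libraries 100.0% of nonzero values were whole multiples (within 0.01) of what 1 read is worth, and edgeR 4.0.16 and DESeq2 1.42.0 were run on those reads as alternatives. edgeR called 1460 genes higher and 1554 lower. Reads of GαqKO replicate 3 were not used here, since its step is too close to 1. Floors of 3 counts cover counting error only. Replicate pairs differed by more than counting noise (chi-square per gene from 2.44 to 5.50). The fit was tested on simulated data.

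The members and lists were chosen with earlier results of these data known. Named were all members, Gnaq and Gna11, and in each list the genes past both thresholds, filled up to 3 by the highest mean. Likeness was the distance between centred log2 profiles, for the called members with the largest rise and fall, among genes with a name other than a Gm number or Rik name. Some genes of the lists are not reported here by name.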

Additional observations from a re-analysis of the deposited data

How the results depend on the processing

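Over 15 alternatives in scaling, pseudocount, filter, prior spread, replicate block, count tests and libraries left out, Il6ra kept a log2 fold change between 1.40 and 1.54 and Lifr between -1.49 and -1.37, both past the thresholds in each. Leaving out each library in turn gave 1 to 2 members higher and 1 to 1 lower, with Il11 lost without WT replicate 1. It gave 1426 to 1545 genes higher and 1492 to 1603 lower, and a log2 fold change of Lif from -0.025 (without GαqKO replicate 3) to 0.15. Lif was -0.014 in edgeR and -0.022 in DESeq2 on the reads of 5 libraries, which leave out the same library, and passed no threshold in these. Requiring 10 normalized counts in every library left 831 genes higher and 765 lower of 12054, since genes absent from a group are removed, and Clcf1 was then not tested. Clcf1 passed with no trend in the prior spread (adjusted p = 0.00276, limma), and the cause was not tested. Socs3 missed the threshold in DESeq2 (adjusted p = 0.0555). With no filter Il6 passed in limma (adjusted p = 0.0189) but not in DESeq2 on the reads of 5 libraries (adjusted p = 0.147), and its fitted size, set by the added count, is not given. The replicate block called 1421 genes higher and 1478 lower and changed no member's call. Deviations of same-numbered libraries from their group means had r across genes of -0.05, -0.15 and -0.06. Those of different-numbered libraries had r from -0.07 to 0.12. Deviations from a mean of 3 libraries depend on each other, so these values cannot settle whether the numbers pair the libraries. Il6, Clcf1 and Cntfr had few counts in 1 group or both, and the part of depth or gene position in this was not tested.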
